A study of Mus musculus with 16 samples.

Results

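Mixed skin carcinomas of mice, which hold differentiated beside undifferentiated areas, were compared with carcinomas that were undifferentiated or of spindle cell type. There were 3 mixed tumors and 6 undifferentiated or spindle tumors, so 9 of the 16 arrays of the series entered the comparison. The members were chosen by the histological subtype in the labels, with no use of measured values. All of the mice had the FVB background, and those with tumors carried k14Cre, a Cre recombinase driven by the keratin 14 promoter, which acts in the basal layer of stratified epithelia. The p53 tumors came from k14Cre;p53loxP/loxP mice, and the pRbp53 tumors from k14Cre;p53loxP/loxP;pRbloxP/loxP mice, so every tumor arose after deletion of p53 and the pRbp53 tumors after deletion of pRb as well. Cells of the skin in which keratin 14 was never active keep both genes. The mixed tumors were p53 tumor 1, p53 tumor 7 and pRbp53 tumor 4. The others were p53 tumor 3, the only one labelled undifferentiated, p53 tumor 6 and pRbp53 tumors 1, 2, 3 and 5, all labelled spindle cell carcinoma. The 3 poorly differentiated tumors (p53 tumors 2, 4 and 5) and 4 samples of wild-type control skin served as references, and the ages of the mice were not given in the sources used here.

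Keratinocytes hold together through desmosomes, which anchor keratin filaments at the cell border, and through adherens and tight junctions built on E-cadherin and claudins. Transcription factors such as Grhl2 and Ovol1 and the splicing factors Esrp1 and Esrp2 keep these genes active in epithelia. In an epithelial to mesenchymal transition (EMT) factors of the Snail and Zeb families shut them down, and cells take on a spindle shape with vimentin and fibrillar matrix. Spindle cell carcinoma of the skin is a classic example of a squamous tumor that has lost keratins and E-cadherin, and a mixed tumor is read under the microscope as lying between the states.

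Signals are log2 values after RMA, so that levels and differences below are on that scale, and the median of the 16 arrays lay between 5.63 and 5.76. Nothing in the labels says that the tumors came from separate animals, so p-values measure only the spread between these samples. The array's actin controls give a gap between 3' and 5' signals (log2) that widens with broken RNA. This gap reached 1.67 in p53 tumor 7, 0.68 in pRbp53 tumor 4 and 0.27 in p53 tumor 1, while all 6 undifferentiated or spindle tumors had 0.21 to 0.50. The same gap of the Gapdh controls was 0.83 in p53 tumor 7 and at most 0.09 in each other tumor of the comparison. Xist, expressed from the inactive X chromosome, was high in 2 mixed tumors (11.69 and 11.74) and low in p53 tumor 7 (5.72), and among the others it ran from 5.26 to 12.03. p53 tumor 3 held a log2 signal of 10.80 for the milk protein gene Csn2, which stood between 3.10 and 4.36 in the other undifferentiated or spindle tumors and between 3.34 and 3.73 in the mixed tumors. Rb1, the gene of pRb, gave 8.20, 7.57 and 7.10 in the mixed tumors in the order named above and 7.66 to 8.04 in the others (difference -0.22 ± 0.22, SE; limma adjusted p = 0.699). Whether its probeset lies inside the deleted exons is not given, so these levels say nothing on the labels.

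The labels were set against the defining markers of keratinocytes and mesenchymal cells. Of the keratinocyte markers, Krt14, Cdh1, Epcam and Dsp were higher in every mixed tumor than in every undifferentiated or spindle tumor, whereas Krt5 overlapped through pRbp53 tumor 4. The mesenchymal gene Vim was strong in all 9 tumors, at 11 to 13.24 in the mixed and 13.08 to 13.75 in the others. In whole tumors, fewer cells of a type and less RNA per cell cannot be told apart.

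The few genes that passed the test were all higher in the mixed tumors, and those with the widest differences, Dsp and Epcam, act in epithelial adhesion. Dsp, which encodes desmoplakin of the desmosome, and Epcam, an epithelial adhesion molecule, rose by 6.91 ± 0.57 and 4.40 ± 0.44 on the log2 scale (SE). Fgfr2, a receptor of fibroblast growth factors whose epithelial splice form depends on Esrp1, rose by 3.16 ± 0.30, Plb1, a phospholipase, by 2.17 ± 0.13, and Gnaq, a G protein subunit, by 1.22 ± 0.12. In all, 8 of 45037 probesets passed an adjusted p of 0.05, which is 0.0178%, and they stood for these 5 genes, on chromosomes 13 (Dsp), 17 (Epcam), 7 (Fgfr2), 5 (Plb1) and 19 (Gnaq), and 2 probesets without a gene name. No probeset passed in the lower direction, where 2646 (5.88%) had an unadjusted p under 0.05, and the methods' t-test with the same adjustment called 0 probesets in either direction. At an adjusted p under 0.1, 43 probesets were higher (0.0955%) and 13 lower (0.0289%).

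**Figure D1:**
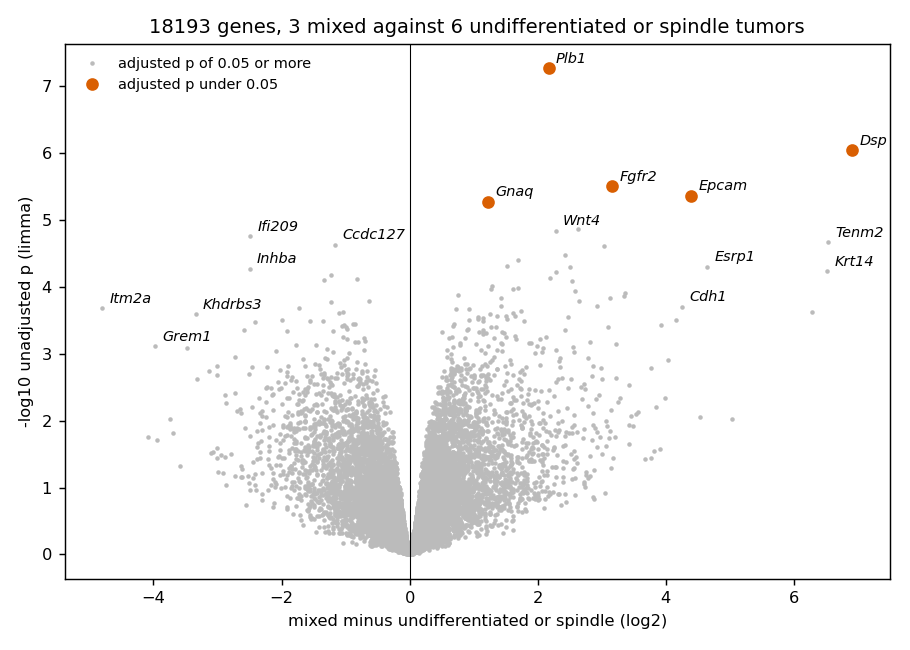
Difference between the mixed and the undifferentiated or spindle tumors (log2, horizontal axis) against the -log10 of the unadjusted limma p (vertical axis) for 18193 genes, 1 point a gene. The 5 genes with an adjusted p under 0.05 (orange) all lie to the right, and Dsp has the widest difference among them, at 6.91.

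Dsp separated the groups by the widest gap among the genes that passed. Its log2 signal was 10.60 in p53 tumor 1, 12.48 in p53 tumor 7 and 10.14 in pRbp53 tumor 4. In the 6 undifferentiated or spindle tumors it had a lowest value of 3.28, a median of 4.17 and a highest of 5.09. All 3 mixed tumors thus stood at least 5 steps above every other tumor of the comparison, and close to the 10.99 to 12.34 of poorly differentiated tumors. The group means were 11.07 ± 1.24 (SD, n = 3) and 4.16 ± 0.71 (SD, n = 6), a 120.0-fold ratio (limma adjusted p = 0.0151). A further probeset of Dsp passed with a difference of 6.43, and the third differed by 2.40 without passing. Dsp kept its call in 19 of 24 alternative analyses and lost it among p53 tumors alone, under the methods' t-test, and without p53 tumor 6, pRbp53 tumor 1 or pRbp53 tumor 5.

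Epcam was nearly level across the mixed tumors. It gave 9.87, 9.77 and 9.43 in p53 tumor 1, p53 tumor 7 and pRbp53 tumor 4, against a lowest of 4.81, a median of 4.91 and a highest of 6.87 in the undifferentiated or spindle tumors. The highest of these was p53 tumor 3, the undifferentiated one, and the groups did not overlap. The means were 9.69 ± 0.23 (SD, n = 3) and 5.29 ± 0.80 (SD, n = 6), a ratio of 21.1 (adjusted p = 0.0302). The poorly differentiated tumors were higher still, at 11.65 to 12.93. The other Epcam probeset differed by -0.12, and the call held in 12 of 24 alternative analyses.

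Fgfr2 lay near the level of normal skin in the mixed tumors. Its signals were 9.64, 9.15 and 10.07 in the 3 mixed tumors and 9.64 to 10.56 in control skin, while the undifferentiated or spindle tumors had a lowest of 5.89, a median of 6.38 and a highest of 7.31. The means of 9.62 ± 0.46 (SD, n = 3) and 6.46 ± 0.47 (SD, n = 6) gave a ratio of 8.91 (adjusted p = 0.0302), and both other probesets of Fgfr2 were higher in the mixed tumors as well, by 0.61 and 2.29. It passed in 11 of 24 alternative analyses. In the poorly differentiated p53 tumors 2, 4 and 5 Fgfr2 gave 9.51, 9.37 and 6.45. The last of these lay within the range of the undifferentiated or spindle tumors.

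Plb1 and Gnaq passed through small spreads rather than wide gaps. Plb1 gave 7.25, 7.0 and 6.73 in the mixed tumors and a lowest of 4.73, a median of 4.81 and a highest of 4.95 in the others (ratio 4.50, adjusted p = 0.00245). Control skin, at 5.12 to 5.73, lay below the mixed tumors, whereas poorly differentiated tumors ran from 6.76 to 9.44. Gnaq gave 9.55, 9.55 and 9.56 in the mixed tumors and a lowest of 8.10, a median of 8.34 and a highest of 8.63 in the others (ratio 2.32, adjusted p = 0.0302). Plb1 held in 19 of 23 alternative analyses and Gnaq in 6 of 24. The 3 other probesets of Plb1 differed by -0.14 to 0.27, and the 6 other probesets of Gnaq by 0.05 to 0.86.

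**Figure D2:**
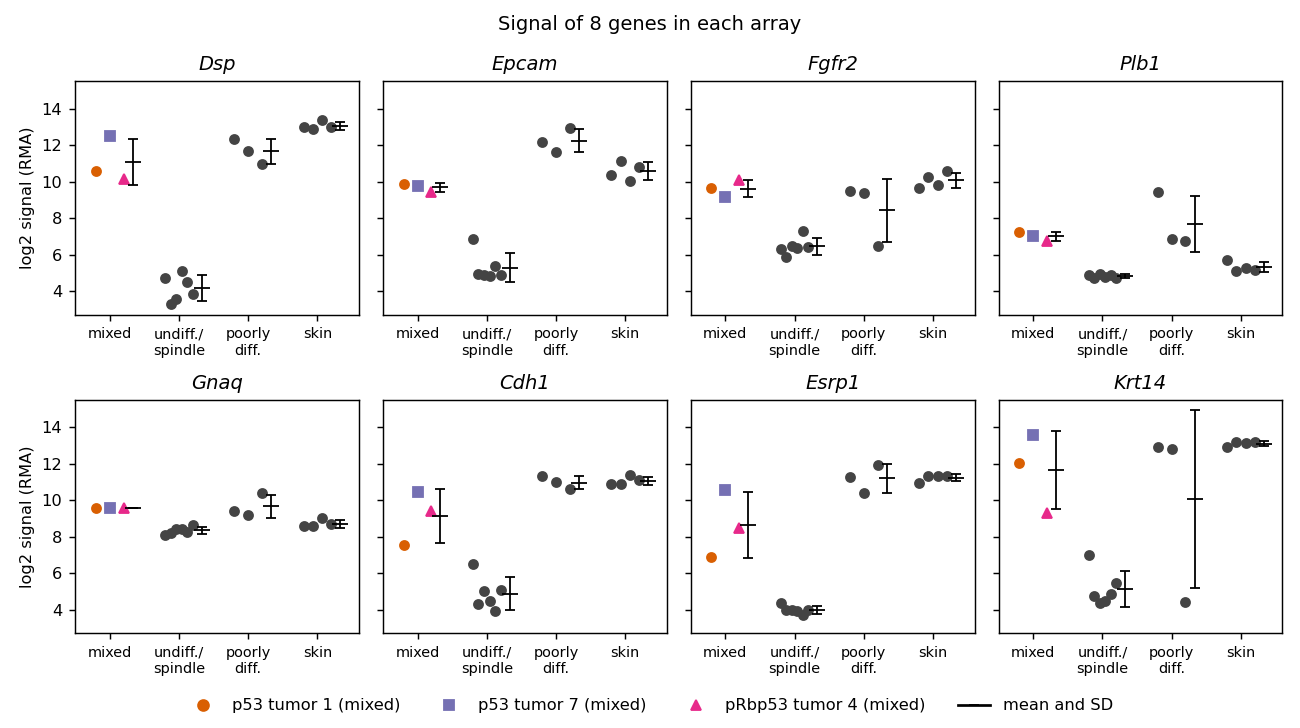
Log2 signal (RMA, vertical axis) of 8 genes in each array of the mixed, undifferentiated or spindle, poorly differentiated and control skin groups. Each point is 1 array, bars are the mean and SD, and the 3 mixed tumors have symbols of their own. Epcam and Gnaq were nearly level across the mixed tumors, whereas Cdh1 ran from 7.53 to 10.43 and Krt14 from 9.32 to 13.59.

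The promoters of Dsp and Epcam, the genes that passed and build junctions, are shown with those of Krt14, the keratin whose promoter drives Cre in these mice, and of Wnt4, to set the E-box of the Snail and Zeb repressors in its place. Each run is the 250 bases before the gene's start in RefSeq (GRCm38.p6), read 5′ to 3′ on the strand of the gene, with each CACCTG, or CAGGTG as its reverse complement, in capitals. The windows are chr13:38151044-38151293 (plus strand) for Dsp, chr17:87635729-87635978 (plus) for Epcam, chr11:100206031-100206280 (minus) for Krt14 and chr4:137277385-137277634 (plus) for Wnt4.
Dsp: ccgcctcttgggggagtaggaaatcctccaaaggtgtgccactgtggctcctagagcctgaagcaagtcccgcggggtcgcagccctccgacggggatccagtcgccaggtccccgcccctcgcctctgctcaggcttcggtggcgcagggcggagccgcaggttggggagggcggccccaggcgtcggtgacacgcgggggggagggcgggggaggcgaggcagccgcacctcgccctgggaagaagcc
Epcam: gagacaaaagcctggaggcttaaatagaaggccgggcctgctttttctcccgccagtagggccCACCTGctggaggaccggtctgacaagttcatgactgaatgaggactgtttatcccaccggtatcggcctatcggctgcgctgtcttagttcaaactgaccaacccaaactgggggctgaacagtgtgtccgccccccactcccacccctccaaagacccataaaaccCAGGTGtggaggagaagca
Krt14: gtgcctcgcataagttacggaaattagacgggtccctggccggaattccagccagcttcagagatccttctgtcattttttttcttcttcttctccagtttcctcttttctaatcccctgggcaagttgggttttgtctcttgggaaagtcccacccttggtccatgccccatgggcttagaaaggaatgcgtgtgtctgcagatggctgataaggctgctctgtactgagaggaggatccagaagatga
Wnt4: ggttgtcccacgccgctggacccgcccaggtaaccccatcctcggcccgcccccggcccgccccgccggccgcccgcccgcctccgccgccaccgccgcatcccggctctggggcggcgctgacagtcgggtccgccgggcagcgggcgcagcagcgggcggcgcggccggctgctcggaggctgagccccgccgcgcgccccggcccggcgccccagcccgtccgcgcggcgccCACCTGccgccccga
Epcam held 2 matches, starting 187 and 19 bases before the gene's start, and Wnt4 held 1, starting 15 bases before it, while Dsp and Krt14 held none in this window. The motif stood on either strand in 17.2% of all 32851 promoters of this length, and 19.4% of 27025 genes did in at least 1 promoter. Among the 5 genes that passed, Epcam alone had it. Of the adherens and tight junction genes 10 of the 17 matched in the table held it, of the epithelial regulators 4 of 9, of the basal keratinocyte genes 3 of 7 and of the desmosome genes 0 of 2. A match gives letters in a window and not a bound site.

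The next genes by p value, which did not pass, again held epithelial genes on the higher side. Tenm2, a teneurin of cell adhesion, gave 7.99, 12.59 and 9.56 in the mixed tumors against a lowest of 3.35, a median of 3.48 and a highest of 3.69 (difference 6.53 ± 0.80, SE, adjusted p = 0.0649). Esrp1, the epithelial splicing regulator, gave 6.88, 10.53 and 8.49 against 3.68, 3.97 and 4.37 (4.65 ± 0.63, adjusted p = 0.0815). Krt14, the keratin of basal keratinocytes, gave 12.05, 13.59 and 9.32 against 4.36, 4.78 and 6.99 (6.52 ± 0.91, adjusted p = 0.0815). In each of these the 3 mixed tumors were spread over several log2 steps, yet each stood above all 6 of the others. Wnt4, a ligand of the Wnt pathway, was tighter, at 8.34, 8.62 and 8.74 against 5.72, 6.22 and 6.96 (2.28 ± 0.26, adjusted p = 0.0649). Prss12, a secreted serine protease, differed by 2.63 ± 0.30, Padi3, which modifies proteins of the hair follicle by deimination, by 3.04 ± 0.38, and Fry by 2.42 ± 0.31. Adcy1, an adenylyl cyclase, Prodh, which breaks down proline, and Cwh43 were also among the 15, with differences of 1.69, 1.52 and 2.51. Without p53 tumor 1 all 10 of these genes had an adjusted p under 0.05, where 1.11% of all genes did on the higher side. Since the 10 were chosen by their p in the same tumors, this count adds no support and cannot be weighed against that share.

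None of the 15 genes named on the lower side passed. Inhba, which encodes the activin subunit beta A and is a ligand of the TGF-beta family, gave 8.66, 7.96 and 7.39 in the mixed tumors against a lowest of 9.93, a median of 10.53 and a highest of 11.26 (difference -2.50 ± 0.34, adjusted p = 0.0815). Ifi209, an interferon-inducible gene, gave 5.11, 4.76 and 4.92 against 6.67, 7.42 and 8.22 (-2.49 ± 0.30, adjusted p = 0.0649). Itm2a, an integral membrane protein, gave 6.85, 5.04 and 7.26 against 9.23, 11.31 and 12.61 (-4.80 ± 0.79, adjusted p = 0.118). The groups did not overlap in these genes, and poorly differentiated tumors were at the level of the mixed ones, at 6.41 to 7.98 for Inhba and 6.16 to 7.19 for Itm2a. Khdrbs3, an RNA-binding protein, differed by -3.34 ± 0.57 and Lrg1, a secreted glycoprotein of inflammation, by -1.99 ± 0.35. Ccdc127, Limd2, Necap1, Gramd1b, Pde10a, Ap1s2, Psmd5, Snap23, Gnpnat1 and Nkain1 differed by -1.73 to -0.82. Over all 18193 genes the groups did not overlap at 701 genes in the higher direction (3.85%) and 472 in the lower (2.59%), so a gap between the groups was not in itself unusual.

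Epithelial lists lay higher in the mixed tumors by their medians, with few members past the threshold. Counts here and for the lists below are read beside the shares over all genes. Of all genes 0.0275% passed, 7.95% had an unadjusted p under 0.05 on the higher side and 6.02% on the lower. The groups did not overlap at 3.85% of genes on the higher side and 2.59% on the lower, and the median difference was 0.02. Of 23 adherens and tight junction genes 1 passed (Epcam), 13 had an unadjusted p under 0.05 on the higher side, 7 did not overlap and the median difference was 0.50. Of 14 desmosome genes 1 passed (Dsp), 6 had such a p, 2 did not overlap and the median was 1.69, or 0.55 without p53 tumor 7. Their mean level was 6.63 in p53 tumor 1 and 9.37 in p53 tumor 7. In pRbp53 tumor 4 it was 5.5, inside the 4.63 to 5.62 of the undifferentiated or spindle tumors. Of 19 epithelial transcription and splicing regulators 0 passed, 12 had such a p and the median was 1.05. Of 12 basal keratinocyte genes 0 passed, 8 had such a p and the median was 2.43. Apart from Foxa1, with a difference of -0.38, every regulator on the list differed upward. Of the 19, 6 lay higher without overlap between the groups, namely Esrp1, Esrp2, Grhl2, Ovol1, Elf3 and Tfap2c, and Foxa1 lay lower without overlap.

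Among the junction genes Cdh1, which encodes E-cadherin, was lowest in p53 tumor 1 among the mixed tumors. Its signals were 7.53 in p53 tumor 1, 10.43 in p53 tumor 7 and 9.43 in pRbp53 tumor 4, against a lowest of 3.91, a median of 4.74 and a highest of 6.48 in the others (difference 4.25 ± 0.70, adjusted p = 0.118). Patj, a scaffold of the tight junction, gave 7.05, 9.0 and 8.0 against 5.16, 5.53 and 5.86 (2.53 ± 0.37, adjusted p = 0.0882). Both were lowest in p53 tumor 1 and highest in p53 tumor 7. Both passed without p53 tumor 1, which follows in part from leaving out their lowest mixed tumor. Cldn1, the main claudin of epidermis, gave 6.17, 10.58 and 7.95 and overlapped with the others through pRbp53 tumor 5, which had 7.16.

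Over the 19 regulators the mean level was 6.35 in p53 tumor 1, 7.91 in p53 tumor 7 and 6.16 in pRbp53 tumor 4, against 4.90 to 5.75 in the undifferentiated or spindle tumors. Some members had p53 tumor 1 lowest of the mixed tumors instead. Grhl2, a transcription factor of epithelial junction genes, gave 7.15, 9.44 and 7.77 in p53 tumor 1, p53 tumor 7 and pRbp53 tumor 4, against a lowest of 4.52, a median of 5.17 and a highest of 5.76 (2.92 ± 0.48, adjusted p = 0.118). Tfap2c, the factor AP-2 gamma of basal epidermis, gave 6.22, 10.14 and 7.33 against 3.52, 3.57 and 4.62 (4.16 ± 0.73, adjusted p = 0.118). Esrp2, the partner of Esrp1, gave 5.64, 8.85 and 6.20 against 4.54, 4.71 and 5.27 (2.08 ± 0.60, adjusted p = 0.242). From the list of epithelial proteases and inhibitors, Spint2, an inhibitor of membrane serine proteases, gave 8.83, 10.50 and 9.42 against 7.03, 7.28 and 7.64 (2.28 ± 0.32, adjusted p = 0.0815), and St14, the membrane protease matriptase, gave 5.92, 7.36 and 6.65 against 5.16, 5.23 and 5.67 (1.32 ± 0.28, adjusted p = 0.161). In these 5 genes p53 tumor 1 was the nearest of the mixed tumors to the undifferentiated or spindle tumors.

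**Figure D3:**
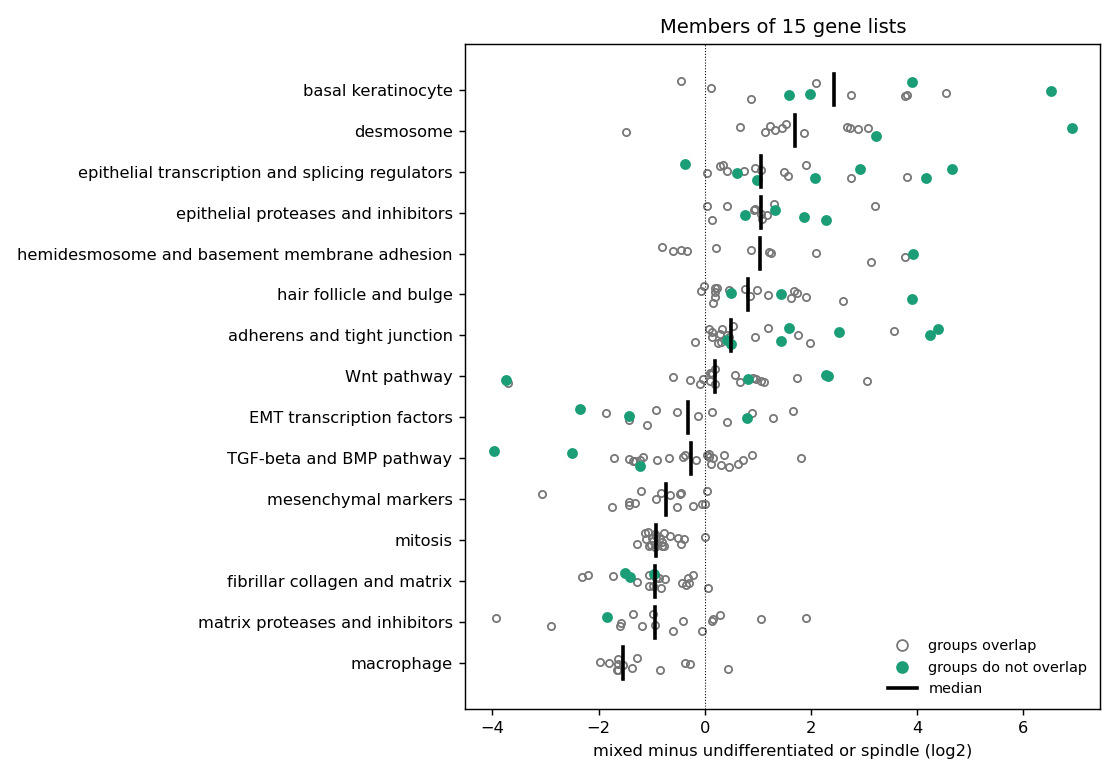
Difference between the mixed and the undifferentiated or spindle tumors (log2, horizontal axis) of the measured members of 15 gene lists, 1 point a gene, with the median of each list as a bar. Filled points are genes whose groups do not overlap; the medians run from 2.43 for basal keratinocyte genes to -1.55 for macrophage genes.

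Basal keratinocyte genes were uneven in pRbp53 tumor 4. Over the 12 genes the mean level was 8.97, 11.36 and 6.52 in p53 tumor 1, p53 tumor 7 and pRbp53 tumor 4, against 6.02 to 7.0 in the undifferentiated or spindle tumors. Krt14, Krt15, Cdh3 and Bcam, a laminin receptor, were higher in every mixed tumor than in every tumor of the other group, and Bcam gave 6.56, 10.32 and 7.16 against 5.65 to 6.36. Others were low in pRbp53 tumor 4. Trp63, the master regulator of stratified epithelia, gave 9.72 and 11.50 in p53 tumors 1 and 7 but 3.55 in pRbp53 tumor 4, while the undifferentiated or spindle tumors ran from 3.78 to 5.61. Krt5, the partner of Krt14, gave 10.29 and 13.67 but 5.71 in pRbp53 tumor 4, against 5.05 to 5.72. Col17a1 and Itgb4, of the hemidesmosome that anchors the basal layer, gave 9.23 and 11.76, and 8.91 and 10.26, in the p53 tumors, but 3.74 and 5.56 in pRbp53 tumor 4. Each of these values of pRbp53 tumor 4 lay within or below the range of the undifferentiated or spindle tumors. Perp, of the desmosome, behaved likewise, with 11.32 and 12.05 against 3.84. With pRbp53 tumor 4 left out, 5 of the 12 basal keratinocyte genes passed (Krt5, Krt14, Trp63, Itgb4 and Cdh3), where 0.203% of all genes passed on the higher side. The median of the list was then 3.85 in place of 2.43. Since the tumor left out is the one low in Krt5, Trp63 and Itgb4, these numbers follow in part from that choice and add no support. Gli1, Perp, Krt6b, Col17a1 and Krt5 were the 5 genes with the widest range among the mixed tumors. Genotype and tumor cannot be told apart here, since pRbp53 tumor 4 is the only mixed tumor without pRb.

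Over the stress keratins and the cornified epidermis p53 tumor 7 had the highest mean level of the 9 tumors. Krt17, a keratin of wounded and follicular epithelium, stood above the other group in all 3 mixed tumors, at 7.28, 13.44 and 9.67 against 3.66 to 4.02 (6.29 ± 1.06, adjusted p = 0.118), and it passed without p53 tumor 7, where 0.077% of all genes did on the higher side. Krt6b, a keratin of injured skin, gave 12.17 in p53 tumor 7 but 4.40 and 4.10 in the other 2 mixed tumors, inside the 3.95 to 4.61 of the undifferentiated or spindle tumors. Krtdap, a differentiation gene of the upper epidermis, gave 4.70, 10.32 and 5.92 against 3.99 to 4.28. The mean level over the 12 stress keratins and alarmins was 6.4, 10.35 and 5.53 against 5.45 to 6.48, and that over the 21 cornified genes was 7.81 in p53 tumor 7 and 4.75 and 4.66 in the other mixed tumors, against 4.53 to 4.74. Of 12 stress keratins and alarmins and 21 cornified genes none passed, and the list medians of 1.60 and 1.22 became -0.10 and -0.01 without p53 tumor 7. It is also the array with the largest actin 3' to 5' gap (1.67). With that gap as a covariate the difference of Krt6b was -0.50 in place of 2.59, while Krt17 passed. The gap and p53 tumor 7 cannot be told apart here, and the cause was not tested.

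Simple keratins leaned higher in the mixed tumors but did not separate the groups. Of 7 simple epithelial keratins 0 passed and 1 had an unadjusted p under 0.05 on the higher side. All 7 differences were positive, with a median of 1.81, and the groups overlapped in each. Krt8 gave 10.53, 10.61 and 6.53 in the mixed tumors and 11.41 in p53 tumor 3, with a lowest of 4.84 and a median of 5.39 over all 6. Krt18 gave 7.95, 9.44 and 8.86 against 3.75, 6.62 and 10.40. Differences of 2.37 ± 1.63 and 2.10 ± 1.52 were of the size of their errors (adjusted p = 0.57 and 0.587), with the highest value of both keratins in the undifferentiated tumor.

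Hair follicle genes were higher in differing sets of the mixed tumors. Of 20 hair follicle and bulge genes 0 passed, 8 had an unadjusted p under 0.05 on the higher side and the median was 0.81, or 0.22 without p53 tumor 7. Krt75, a keratin of the hair follicle, gave 5.08 in p53 tumor 1, 10.16 in p53 tumor 7 and 7.62 in pRbp53 tumor 4 against 4.83 to 5.15, and Krt15, a keratin of the bulge, 6.65, 13.91 and 6.14 against 4.96 to 5.04, with Krt15 passing without p53 tumor 7. Hoxc13, a regulator of hair keratins, was at 10.41 in p53 tumor 7 and at 4.86 and 4.99 in the other mixed tumors. Fat2, a large cadherin of epidermis, and Krt79, a keratin of the follicle opening, were chosen after their values were seen. They gave 7.47, 10.10 and 10.41, and 4.97, 8.19 and 7.83, against highest values of 6.50 and 4.91 in the other group.

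Of the mesenchymal genes 0 passed. Of 16 mesenchymal markers 15 had a negative difference and 2 an unadjusted p under 0.05 on the lower side, with a median of -0.73, and the groups overlapped in each. Their mean level was 9.48, 8.32 and 8.96 in p53 tumor 1, p53 tumor 7 and pRbp53 tumor 4, against 9.42 to 10.17 in the others. EMT factors went both ways, with a mean level of 9.03, 7.14 and 9.10 against 8.39 to 9.12, so that p53 tumor 7 alone lay below the other group. Of 14 EMT transcription factors 3 had an unadjusted p under 0.05 on the lower side and 1 on the higher, with a median of -0.33. Zeb2, a repressor of E-cadherin, gave 8.41, 7.65 and 7.34 in the mixed tumors against a lowest of 8.45, a median of 9.10 and a highest of 9.98 (-1.42 ± 0.36, adjusted p = 0.208). Prrx2, a homeobox factor of mesenchyme, gave 7.38, 4.86 and 7.05 against 7.92, 8.77 and 9.95 (-2.35 ± 0.62, adjusted p = 0.22). Neither overlapped, and Foxq1, a forkhead factor, lay higher without overlap, at 6.59, 5.80 and 5.87 against 5.09 to 5.58 (0.80 ± 0.19, adjusted p = 0.186). Snai1, the Snail repressor, ran past both ends of the other group, at 6.98, 4.77 and 9.56 in the mixed tumors against 7.06 to 9.49. Foxc2, a mesenchymal forkhead factor, was highest in a mixed tumor, with 8.04, 5.01 and 10.65 against 5.0 to 8.56. The list median was 0.23 without p53 tumor 7, in which Snai1, Foxc2 and Prrx2 were all lowest of the mixed tumors.

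Genes of the matrix and of its proteases were lower in the mixed tumors for the most part, and none passed. Of 20 fibrillar collagen and matrix genes 7 had an unadjusted p under 0.05 on the lower side, 3 did not overlap (Col5a1, Col6a3 and Plod2) and the median was -0.94. Of 17 matrix proteases and inhibitors 5 had such a p and the median was also -0.94, or -0.35 without p53 tumor 7. Over the matrix genes the mean level was 11.64, 10.68 and 11.06 in p53 tumor 1, p53 tumor 7 and pRbp53 tumor 4, against 11.34 to 13.09. Over the proteases and inhibitors it was 8.38, 8.25 and 8.08, all inside the 7.98 to 9.76 of the undifferentiated or spindle tumors. Mmp3, stromelysin 1, gave 6.96, 9.49 and 5.05 against a lowest of 8.29, a median of 10.69 and a highest of 13.77 (-3.94 ± 1.38, adjusted p = 0.304), so that it overlapped through p53 tumor 7. Timp1, which inhibits metalloproteinases, gave 10.61, 9.88 and 8.84 against 10.98, 11.66 and 12.56 (-1.85 ± 0.44, adjusted p = 0.185). Col5a1, of fibril-forming type V collagen, gave 10.47, 9.19 and 10.92 against 11.06, 11.61 and 12.59 (-1.50 ± 0.45, adjusted p = 0.26). Thbs2, a matrix thrombospondin, and Col12a1, of a fibril-associated collagen, differed by -2.20 ± 0.70 and -2.32 ± 0.82.

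Of 26 genes of the TGF-beta and BMP pathway, in which ligands bind receptor kinases that signal through Smad proteins, 5 had an unadjusted p under 0.05 on the lower side and 2 on the higher, with a median of -0.26. Those that did not overlap were the ligands Inhba and Tgfb3 and the BMP antagonist Grem1. Grem1 gave 6.88, 6.13 and 5.43 against a lowest of 8.39, a median of 9.61 and a highest of 11.90 (-3.97 ± 0.79, adjusted p = 0.143), and Tgfb3 gave 7.72, 7.23 and 7.36 against 8.04, 8.66 and 9.38 (-1.23 ± 0.30, adjusted p = 0.193). The poorly differentiated tumors went the same way for Grem1 (4.22 to 5.06) and the other way for Tgfb3 (8.88 to 11.24).

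Ligands and receptors of other pathways differed in both directions. In the Wnt list of 23 genes the ligand Wnt4 and the receptors Fzd6 and Lrp6 lay higher without overlap and the secreted antagonist Dkk2 lower. Over all genes 3.85% lay higher without overlap and 2.59% lower. The median of the list was 0.19. Dkk2 gave 5.14, 5.29 and 3.95 in the mixed tumors, close to the 4.04 to 4.95 of poorly differentiated tumors, and 5.57 to 10.85 in the others (-3.74 ± 1.13, adjusted p = 0.26). Fzd6 gave 8.98, 9.93 and 7.66 against 5.80 to 7.60 (2.32 ± 0.55, adjusted p = 0.185). Among 11 EGF receptors and ligands the receptors Erbb2 and Erbb3 lay higher without overlap and the ligand Ereg, epiregulin, lower. Erbb3 gave 6.05, 9.30 and 6.50 against 4.59 to 5.79, and Ereg 7.54, 7.72 and 3.95 against 8.58 to 9.99.

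Genes of macrophages were lower in 2 of the mixed tumors. Over the 13 measured macrophage genes the mean level was 9.73 in p53 tumor 1, 7.78 in p53 tumor 7 and 7.14 in pRbp53 tumor 4, against 8.47 to 9.93 in the undifferentiated or spindle tumors, so p53 tumor 1 stood within the range of the others. Of the 13 genes 0 passed, 7 had an unadjusted p under 0.05 on the lower side and the median was -1.55. Lyz2, lysozyme of myeloid cells, gave 12.83, 10.18 and 10.13 against a lowest of 12.17, a median of 12.96 and a highest of 13.44 (-1.81 ± 0.59, adjusted p = 0.277), and Itgam, an integrin of myeloid cells, gave 7.52, 4.25 and 4.41 against 6.37, 7.45 and 7.93. Without p53 tumor 1 the genes Csf1r, Itgam, C1qb and Lyz2 passed, where 0.835% of all genes did on the lower side, and the median was -2.44. These calls follow in part from leaving out the mixed tumor that stood within the range of the others. Without pRbp53 tumor 4 the median was -0.81. The defining marker Csf1r, the receptor of the macrophage growth factor, remained measurable in all 9 tumors, at 9.55 to 12.62. The part of macrophage content in the other differences was not tested.

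Genes of cell division did not pass in either direction. Of 21 mitosis genes 0 had an unadjusted p under 0.05 and 20 of 21 differences were negative, with a median of -0.92, or -0.31 without p53 tumor 7. Their mean level was 8.01, 6.76 and 8.50 in the mixed tumors and 7.22 to 9.48 in the others, so that p53 tumor 7 alone fell outside the range. Of 28 DNA replication genes 0 had such a p, with a median of -0.56. The checkpoint kinase gene Bub1 gave 7.82, 6.50 and 8.73 against 7.28 to 10.42 (-1.33 ± 0.75, adjusted p = 0.488). Skeletal muscle, adipocyte, endothelial, T cell, B cell, mast cell, melanocyte and Schwann cell lists had medians of -0.57 to 0.24, with 0 genes passed in each.

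The mixed tumors resembled one another less than the tumors of the other group did. Over 18193 genes the Pearson correlation between mixed tumors was 0.881 to 0.908 (3 pairs), against 0.930 to 0.962 among the undifferentiated or spindle tumors (15 pairs), as a description across genes of arrays normalized together. p53 tumor 1 correlated at 0.936 to 0.952 with the undifferentiated or spindle tumors, that is, more closely than with either mixed tumor. pRbp53 tumor 4 correlated at 0.890 to 0.917 with them and p53 tumor 7 at 0.878 to 0.888, with its closest tumor being the poorly differentiated p53 tumor 2, at 0.917. In p53 tumor 1, 52 genes (0.286%) stood more than 2 log2 steps above every undifferentiated or spindle tumor, against 387 (2.13%) in p53 tumor 7 and 269 (1.48%) in pRbp53 tumor 4. The array of p53 tumor 7 also had the widest actin gap (1.67). The part of that gap in these numbers and in the grade positions below was not tested.

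What the comparison called depended on which mixed tumor was in it. Without p53 tumor 1, 653 probesets passed (1.45%), 346 higher and 307 lower, and without pRbp53 tumor 4 or p53 tumor 7 there were 78 (0.173%) and 25 (0.0555%). Of the genes called without p53 tumor 1, 202 were higher and 152 lower. They included Cdh1, Krt17, Esrp1, Grhl2, Tfap2c, Spint2 and St14 on the higher side and Inhba on the lower. Dsp, Fgfr2 and Plb1 passed whichever mixed tumor was left out.

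Genes that separate histological grade placed the mixed tumors at different points. These genes were called between the 3 poorly differentiated and the 6 undifferentiated or spindle tumors with the mixed tumors left out, so the separation of those groups is fixed by the choice and only the mixed tumors are independent of it. Over the 844 genes that were higher in poorly differentiated tumors (4.64% of genes), the mean log2 level was 8.31 to 8.43 there and 6.25 to 6.39 in undifferentiated or spindle tumors. The mixed tumors had 6.76, 7.54 and 6.90, which is 22.3%, 60.0% and 29.1% of the way to the poorly differentiated mean for p53 tumor 1, p53 tumor 7 and pRbp53 tumor 4. Over the 816 genes that were lower in poorly differentiated tumors (4.49%), the levels were 6.84 to 7.09 there and 8.63 to 8.98 in undifferentiated or spindle tumors. The mixed tumors had 8.55, 7.66 and 7.77, or 15.7%, 63.6% and 57.4% of the way. pRbp53 tumor 4 thus lay near p53 tumor 1 by the first set of genes and near p53 tumor 7 by the second. The 3 poorly differentiated tumors were all p53 tumors, with Csn2 at 8.75 to 13.67 and Xist at 11.66 to 12.19. Of the 6 undifferentiated or spindle tumors 4 were pRbp53 tumors, and p53 tumor 3 alone had a high Csn2 signal (10.80). Grade, genotype and milk gene signal cannot be fully told apart over these genes.

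**Figure D4:**
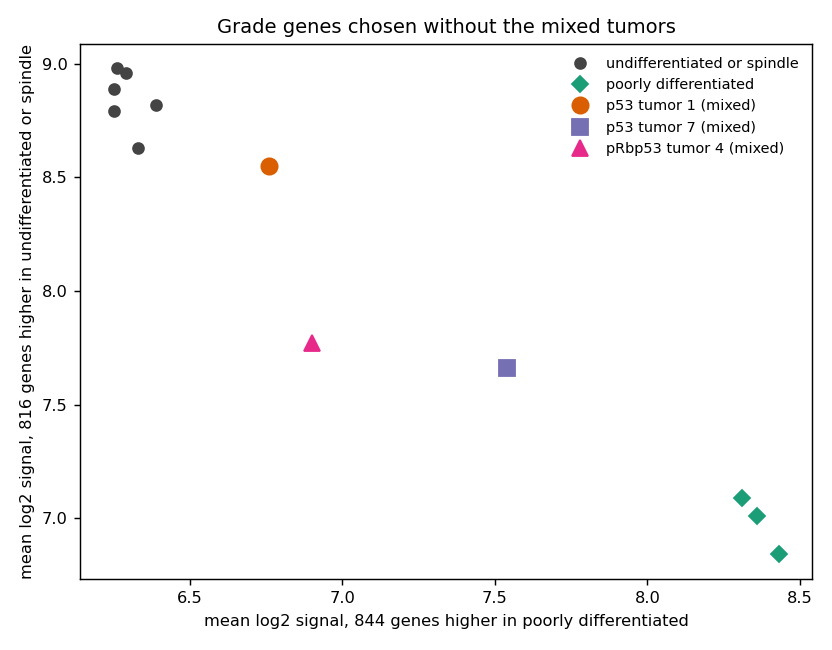
Mean log2 signal over the 844 genes higher in poorly differentiated tumors (horizontal axis) against that over the 816 genes higher in undifferentiated or spindle tumors (vertical axis), 1 point a tumor, with the genes chosen without the mixed tumors. p53 tumor 1 lies beside the undifferentiated or spindle tumors, p53 tumor 7 past the midpoint on both axes, and pRbp53 tumor 4 past it on the vertical axis only.

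Gene by gene, the tumors drew on different members of these sets. Of the 844 genes 189 were nearer the poorly differentiated mean in p53 tumor 1, 463 in p53 tumor 7 and 263 in pRbp53 tumor 4, but 46 were so in all 3 and 239 in none. Of the 816 genes the numbers were 151, 528 and 489, with 51 in all 3 and 102 in none. Across the alternative analyses, which changed the normalization, the threshold or the tumors used, the share of the way stayed between 18.7% and 23.8%, 53.9% and 63.5%, and 27.1% and 32.3% for the first set, and between 13.2% and 19.3%, 60.3% and 67.3%, and 51.7% and 61.8% for the second.

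Against the poorly differentiated tumors, fitted with all 12 tumors together, 328 probesets passed (0.728%), 76 higher and 252 lower in the mixed tumors, and 166 genes (0.912%). With only the 6 tumors of both groups fitted 14 probesets passed, and among p53 tumors 28. Milk genes were among those that passed as lower. Csn1s1, a casein of milk, gave 3.57, 4.10 and 4.12 in the mixed tumors and 9.41 to 13.01 in the poorly differentiated ones, a difference of -7.19 ± 1.24 (adjusted p = 0.0272). Ltf, lactoferrin of milk and other secretions, fell by 6.26 ± 0.45 (adjusted p = 6.97e-05), Kit, a receptor kinase of mast cells and of glandular progenitors, by 5.31 ± 0.63 (adjusted p = 0.00253), and Sox10, a factor of glia and of myoepithelial cells, by 2.95 ± 0.14 (adjusted p = 7.24e-06). The median of the 10 mammary and milk genes was -5.47, and 3 of them passed on the lower side, whereas 0 of 6 salivary gland genes and 0 of 7 sebaceous gland genes passed, with medians of -0.06 and -0.30. In Csn1s1, Kit and Sox10 the mixed tumors differed from the undifferentiated or spindle tumors by -0.91, -0.83 and 0.11 without passing, and among the latter Csn1s1 was 3.73 to 4.39 apart from 8.71 in p53 tumor 3.

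Some junction genes passed as lower in the mixed than in the poorly differentiated tumors and others did not, which is a split by threshold. Epcam fell just short, at -2.56 ± 0.51 (limma adjusted p = 0.0551). Dsp differed by -0.59 ± 0.64 (adjusted p = 0.781), Cdh1 by -1.83 ± 0.74 (adjusted p = 0.381) and Patj by -0.63 ± 0.43 (adjusted p = 0.623), which does not show that they were equal. Of the 23 adherens and tight junction genes 9 passed as lower in the mixed tumors, and 5 of the 19 epithelial regulators did, against 0.704% of all genes. Marveld2, tricellulin of the tight junction, chosen after its values were seen, gave 3.81, 3.75 and 3.70 in the mixed tumors, 3.29 to 3.91 in the undifferentiated or spindle tumors and 7.40 to 8.22 in the poorly differentiated ones (-4.09 ± 0.21, adjusted p = 1.04e-05). Ehf, an epithelial ETS factor chosen in the same way, gave 4.01, 4.59 and 3.14 against 9.17 to 10.61 (-6.20 ± 0.42, adjusted p = 6.16e-05). St14 fell by 3.06 ± 0.30 (adjusted p = 0.000596). On the higher side, Tenm2 rose by 5.74 ± 0.97 (adjusted p = 0.0242) and Adcy1 by 1.79 ± 0.24 (adjusted p = 0.00517), and both were also higher than in undifferentiated or spindle tumors without passing there.

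Gli1, the transcription factor at the end of the Hedgehog pathway, had the widest range of all genes among the mixed tumors. It gave 5.08 in p53 tumor 1, 10.62 in p53 tumor 7 and 13.99 in pRbp53 tumor 4, against a lowest of 4.65, a median of 4.79 and a highest of 5.23 in the undifferentiated or spindle tumors, 4.68 to 6.80 in poorly differentiated tumors and 6.28 to 6.83 in control skin (difference 5.04 ± 1.52, adjusted p = 0.26). In the Hedgehog pathway secreted ligands relieve the block that Ptch1 puts on Smo, and Gli factors then switch on targets that include Gli1 and Ptch1 themselves. Ptch1 was at 13.95 in pRbp53 tumor 4 and at 8.70 and 9.29 in p53 tumors 1 and 7, against 7.80 to 8.38. In poorly differentiated tumors Ptch1 was 9.72 to 10.41 and in control skin 9.04 to 9.5, so only pRbp53 tumor 4 lay above both. Gli2, a further Gli factor, gave 8.78, 10.37 and 10.95 against 7.80 to 9.15 in the undifferentiated or spindle tumors. Gli3, the Gli factor that acts mainly as a repressor, gave 9.36, 8.53 and 8.10 against 8.88 to 10.53. Hhip, a target that binds the ligands, gave 11.48 in pRbp53 tumor 4 but 4.39 and 4.05 in p53 tumors 1 and 7, against 4.06 to 8.16. The ligands Shh, Ihh and Dhh had differences of 0.20, -0.06 and 0.28, and Smo and the inhibitor Sufu of 0.54 and 0.82. None of these 10 genes passed, and Ptch1 alone of them did not overlap. The pathway genes other than Gli1 were chosen after their values were seen.

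Genes next to Gli1 on chromosome 10 were high in the same tumors. These genes were also chosen after their values were seen, and 37 in a row, from Atp23 to Zbtb39, had a probeset. Of the 37, 31 stood more than 1 log2 step above every undifferentiated or spindle tumor in pRbp53 tumor 4, where 3.4% of all genes did, and 22 in p53 tumor 7, where 5.69% did. All 22 were among the 31. In p53 tumor 1 the number was 0, where 1.23% of all genes stood so. The median difference of the 37 from the undifferentiated or spindle mean was 0.08 in p53 tumor 1, 1.75 in p53 tumor 7 and 3.75 in pRbp53 tumor 4, and -0.26 to 0.19 in each of the other 9 tumors.

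Among these neighbours Cdk4, the kinase that phosphorylates pRb in G1, gave 9.97, 11.87 and 14.19 in p53 tumor 1, p53 tumor 7 and pRbp53 tumor 4, against 9.86 to 10.97 in undifferentiated or spindle tumors. Ddit3, a factor of the stress response, gave 8.27, 12.96 and 13.10 against 7.73 to 9.06. Mettl1, a transfer RNA methylase, gave 7.34, 10.37 and 12.73 against 6.64 to 7.61. In each, p53 tumor 1 was within the range of the other group and the other 2 mixed tumors were above it. None of the 37 genes passed in the comparison of 9 tumors. Without p53 tumor 1, the mixed tumor in which they were not raised, 20 passed. DNA was not measured on these arrays.

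**Figure D5:**
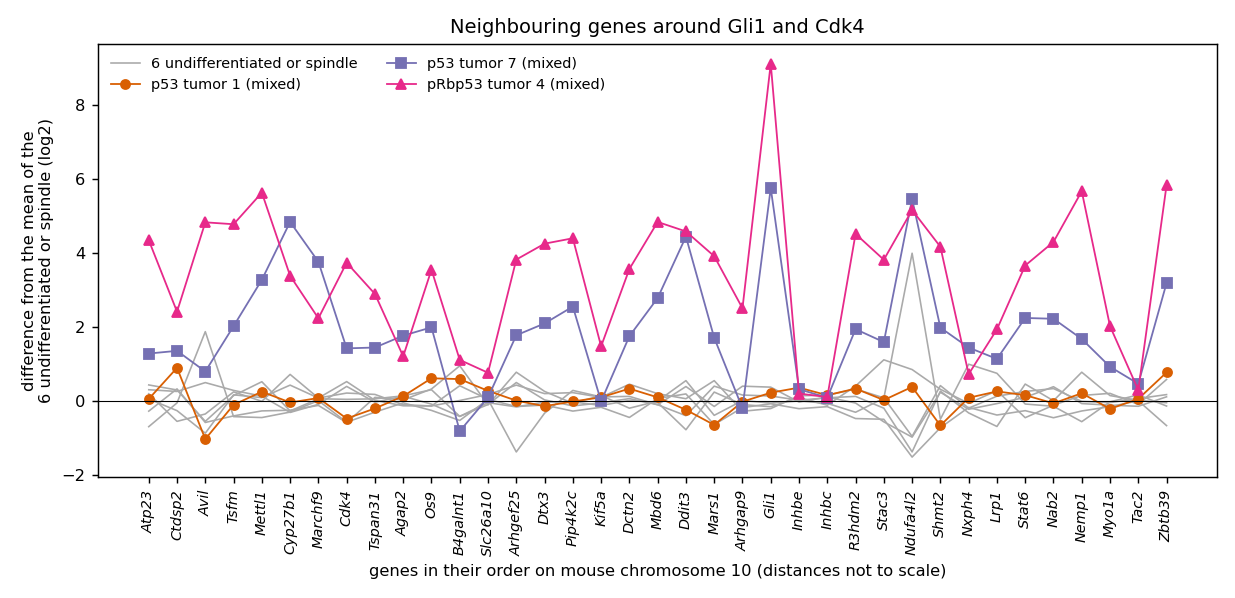
Difference of each tumor from the mean of the 6 undifferentiated or spindle tumors (log2, vertical axis) for 37 genes in their order on mouse chromosome 10 (horizontal axis, distances not to scale). Lines join the genes of 1 tumor; grey lines are the 6 undifferentiated or spindle tumors. The medians were 3.75 in pRbp53 tumor 4, 1.75 in p53 tumor 7 and 0.08 in p53 tumor 1.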

How the data were processed

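RNA of 12 skin carcinomas and 4 samples of control skin had been hybridised to Affymetrix MOE430 2.0 arrays, with a single array for each. The deposited values are log2 signals, which the authors obtained with RMA; the version of RMA is not given in the sources used here. Of 45101 probesets 64 array controls were left out. An annotation of 2016 gave 1 symbol for 34945 of the other 45037, several for 932 and none for 9160, and a gene was represented by its brightest probeset on average over the 16 arrays, which left 18193 genes. The number of arrays limits the precision.

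Groups came from the histological subtype in the labels. limma 3.58.1 in R 4.3.3 (lmFit, eBayes) was fitted to the 9 tumors, two-sided, with Benjamini-Hochberg adjustment over all 45037 probesets and a threshold of 0.05. The mixed against poorly differentiated comparison used 1 fit of 12 tumors. Simulated data took the pooled spread of the 9 tumors. Of 200 probesets with a true log2 difference of 2, 77.5% were called, and 98% of 200 with one of 4, with 13 calls among 44637 unchanged. The simulation drew each probeset independently, with the same spread in both groups. The real mixed tumors resembled one another less than the others did, so these rates do not give the share of real differences found.

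The members and the 40 lists (518 of 558 genes measured) were chosen with earlier results of these data known. The rule for named genes takes Rb1, the 15 genes each way with the largest difference among those that passed, whose groups do not overlap and whose higher group has a mean of at least 6. Where fewer passed, the genes with the smallest p under 0.01 fill the 15. From every list it takes the 4 members that differ most, and over all genes the 5 genes with the widest range among the mixed tumors. Genes named to spell out a count, Esrp2, Cdh3, Bcam, Foxq1, Tgfb3, Csf1r, Fat2, Krt79, Ehf, Marveld2, the neighbours on chromosome 10 and the Hedgehog genes except Gli1 were chosen after their values were seen. Trp53 is not reported here.

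Promoters came from the RefSeq table of GRCm38.p6, in which Cdh1, Esrp1, Grhl2 and Gli1 have no entry. Alternatives changed the tumors fitted, covariates, normalization, filters, threshold, array weights and the test, or left out each tumor in turn; those of the mixed against poorly differentiated comparison and of the grade genes were added after seeing the data. Figures were drawn with matplotlib 3.10.9.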

Additional observations from a re-analysis of the deposited data

Results flagged for a closer look

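Of 121 genes examined for a tumor far from the rest of its group, 8 had one. Chance flags about 1 in 20, so the number of flags was not far from that of chance. Epcam was 6.87 on the log2 scale in p53 tumor 3 and at most 5.36 in the other 5 undifferentiated or spindle tumors. Csn1s1, a milk casein, was 8.71 in the same tumor and at most 4.39 in the others, and Csn2, another casein, 10.80 and at most 4.36. Foxa1, a forkhead factor of glandular epithelia, was 5.41 there and at most 4.32 in the others, and Hhip, a Hedgehog target, 8.16 and at most 4.92. Tfap2c was 4.62 and Cd79a, a B cell receptor gene, 5.30 in pRbp53 tumor 3, with next values of 3.63 and 4.77. Csf1r was 12.62 in pRbp53 tumor 1, with a next value of 12.12.

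The mixed minus undifferentiated or spindle difference depended on genotype for 301 of the 45037 probesets in a limma interaction test (adjusted p under 0.05). Of these, 258 were larger in the pRbp53 tumors. The pRbp53 side of this test rests on 1 mixed tumor, pRbp53 tumor 4, so genotype and that tumor cannot be told apart. Ptch1 differed by 5.96 in the pRbp53 tumors and by 0.72 in the p53 tumors, a gap of 5.24. Cd79a differed by 4.62 and 0.20, a gap of 4.42, with 9.47 in pRbp53 tumor 4 against at most 5.30 in every other tumor of the comparison. Cdh3, P-cadherin of basal keratinocytes, differed by 0.45 and 2.16, a gap of -1.72.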

How the results depend on the processing

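The 8 probesets that passed became 56 at an adjusted p under 0.1, 208 with all 16 arrays, 20 with genotype as a covariate, 20 with the actin gap as a covariate, 3 with array weights, 0 by the methods' t-test, 0 among p53 tumors alone and 830 among pRbp53 tumors alone, where 1 mixed tumor was assumed to vary like the others. The methods' t-test had 3402 probesets at an unadjusted p under 0.05, 1603 higher and 1799 lower. Leaving out 1 tumor gave 1 to 653 probesets: 653, 25 and 78 without p53 tumor 1, p53 tumor 7 and pRbp53 tumor 4, and 1, 1, 3, 5 and 1 without p53 tumor 6 and pRbp53 tumors 1, 2, 3 and 5. Against poorly differentiated tumors the 328 probesets became 583 at an adjusted p under 0.1, 216 with Xist as a covariate, 717 with all 16 arrays, 28 among p53 tumors, 179 over the brighter probesets and 14 with only the 6 tumors fitted, and leaving out 1 tumor gave 266 to 493, the highest without p53 tumor 5. The places of the mixed tumors over the grade genes moved by less than their spread.

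Of the alternatives for named genes, 2650 kept direction and side of the threshold, 134 newly passed, 52 no longer passed and 32 changed sign. Among pRbp53 tumors alone Trp63 (-1), Col17a1 (-0.23), Itgb4 (-0.48), Perp (-2.26), Krt6b (-0.33), Serpinb5 (-0.23), Snai1 (1.08), Csn1s1 (0.08), Kit (0.01), Bub1 (0.27), Csn2 (0.22) and Ihh (0.11) changed sign. Among p53 tumors alone Krt18 (-0.80), Foxc2 (-0.69), Hhip (-2.24), Dhh (-0.01) and Rb1 (0.04) did so, with the actin gap as a covariate Krt6b (-0.50), Pdgfra (0.21), Ihh (0.11) and Hoxc13 (-0.38), and by the median over probesets Sox10 (-0.07). Leaving out 1 tumor moved Krt6b between -0.05 and 3.98, Hoxc13 between -0.09 and 2.69 and Rb1 between -0.51 and 0.04, with the sign turned for Krt6b (-0.05) and Hoxc13 (-0.09) without p53 tumor 7 and for Rb1 (0.04) without pRbp53 tumor 4. It moved Hhip between -0.92 (without pRbp53 tumor 4) and 2.79, and Ihh between -0.13 and 0.06 (without p53 tumor 7), with 0 for Ihh without p53 tumor 3. The causes were not tested. No paired analysis was possible because the histology groups hold tumors of different genotypes that are numbered separately and share fewer than 2 numbers. Leaving out tumors with Csn2 above 7 is the same as leaving out p53 tumor 3. It turned the difference of Csn2 itself to 0.03, and leaving out 1 tumor moved that difference between -1.51 and 0.03. With Xist as a covariate the difference of Xist is 0 by construction.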

Other observations

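The Hedgehog gene Gli1 and its neighbours on chromosome 10 were read further in windows of 20 neighbouring genes along every chromosome, chosen after the data were seen. For each tumor the window with the highest median difference from the undifferentiated or spindle mean was taken. In pRbp53 tumor 4 it was the window from Dtx3 to Nemp1 on chromosome 10, with a median of 4.05, and its next chromosome reached 1.21. In p53 tumor 7 it was the window from S100a7l2 to Lce1f on chromosome 3, which holds genes of the cornified envelope, with a median of 3.48. The next chromosome of p53 tumor 7, chromosome 16, reached 1.97. p53 tumor 1 reached 0.62. Of the poorly differentiated tumors, p53 tumor 4 reached 2.74 and p53 tumor 2 reached 2.46, both on chromosome 11, and p53 tumor 5 reached 0.96. Among the undifferentiated or spindle tumors p53 tumor 3 reached 2.06 on chromosome 5, from Cdk6 to Tex47, pRbp53 tumors 2 and 5 reached 1.93 and 1.84 on chromosome 8, and the other 3 reached 0.54 to 0.90. DNA was not measured, and these medians are descriptions of single tumors without replicates.

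S100b, a calcium-binding protein of glia and of some other cells, gave 4.86, 6.92 and 11.35 in p53 tumor 1, p53 tumor 7 and pRbp53 tumor 4, against 4.94 to 5.64 in the undifferentiated or spindle tumors. Hk2, a hexokinase of glycolysis, gave 8.71, 11.07 and 12.46 against 8.51 to 9.39. In both, p53 tumor 1 was the lowest of the mixed tumors and pRbp53 tumor 4 the highest.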
